A study of Mus musculus with 4 samples.

Results

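Transcripts of 10 genes for potassium channels, purinergic receptors, gap junction proteins and a mechanosensitive channel were counted in the mesenchymal stromal cells (MSC) of the mouse intestine. The genes were P2ry1, P2rx1, Kcnj8, Abcc9, Kcnk2, Kcnn3, Gja1, Gja4, Gjc1 and Piezo2, out of 28692 genes in the tables. They were selected on their differences between PDGFRα-high fibroblasts, interstitial cells of Cajal, smooth muscle cells and pericytes in these same cells. Levels between cell classes are therefore given as a description without a test, and tests were run for the small intestine against the colon. The genes were also chosen with earlier results of these data known, so counts of calls among them are not independent of that choice.

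The cells came from the lamina propria of untreated female C57BL6/Nrj mice aged 8 to 10 weeks, with 3 pooled mice in each of 2 experiments. The muscle coat (muscularis externa) had been removed, and live cells lacking CD45, Ter119, CD31, BP3, EpCAM and L1CAM but carrying Itgb1 were sorted for single-cell RNA sequencing. There were 2 small intestinal (SI) and 2 colonic libraries, with no genetic change or treatment in either group. Each library is a pool of animals, so p-values measure only the spread between these pools. Values per library are given in the order SI replicate 1, SI replicate 2, colon replicate 1 and colon replicate 2.

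Signalling by adenosine triphosphate and related nucleotides reaches gut cells through P2X receptors, which are ion channels, and P2Y receptors, which couple to G proteins. In the gut wall, P2Y1 on PDGFRα-positive cells is known to open small-conductance calcium-activated potassium channels. This hyperpolarises the cell and, through gap junctions, relaxes neighbouring muscle. The cells studied here came from lamina propria without the muscle coat, and this path was not tested in them. Potassium channels of the KATP type, made of Kir6.1 and SUR2, are known from vascular pericytes, and Piezo2 opens when the membrane is stretched or indented.

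The 4 libraries held 2061 to 16795 barcodes and 14341443 to 52269372 unique molecular identifiers (UMIs, one per captured transcript). After quality filters and doublet removal 30464 cells remained. Median depth was 2731 and 3876 UMIs per cell in the replicate 2 libraries, but 6962 and 8827 in the replicate 1 libraries. Between 0 and 69 cell barcodes were shared by any pair of libraries. Cells were placed in classes by the summed level of marker genes, none of which is one of the 10 genes. This gave 4564 PDGFRα-high fibroblasts (PDGFRαhi FB), 21302 other fibroblasts (other FB), 1176 smooth muscle cells (SMC), 196 pericytes and 49 interstitial cells of Cajal (ICC). PDGFRαhi FB numbered 164, 1153, 585 and 2662, and 1025 of them lay within 1.25 times the cut. Another 2351 fibroblasts fell between the lower and the upper cut and were left out. Pericytes numbered 50, 19, 76 and 51, so the second SI library carries the least information on them.

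The class labels were checked against their markers. All 10 PDGFRαhi markers, among them Bmp3, Bmp5 and Wnt5a, were detected in the PDGFRαhi sums of each library, at a summed level of 3651 to 4515 UMIs per 1000000 UMIs (CPM), against 274 to 414 CPM in other FB. Endothelial markers summed to 1.34 to 4.36 CPM in PDGFRαhi FB. Smooth muscle markers summed to 523, 557, 222 and 173 CPM in this class and pericyte markers to 223, 285, 120 and 137 CPM. In other FB pericyte markers summed to 777, 744, 112 and 80.9 CPM. The part of these cells' markers in the differences between the intestines was not tested. In pericytes endothelial markers summed to 37.2 to 206 CPM, with 1 to 7 of the 7 markers detected. Smooth muscle markers reached 1042 to 2762 CPM there, fibroblast markers 2178 to 7742 CPM and pericyte markers 7221 to 10125 CPM. In SI replicate 2, the fibroblast markers (7742 CPM) summed to more than the pericyte markers (7221 CPM). The ICC gate was filled in the colon only, by 12 and 37 cells. Of 16057 SI cells, 44 held a UMI of Kit and 81 one of Ano1, the defining ICC genes, and 0 held both, which allows a share of cells with both of up to 0.0187%. In the colon 83 of 14407 cells held Kit, 989 Ano1 and 69 both. At this depth a cell can express both genes without a UMI of each, so these values limit joint detection and not the share of ICC. The gated ICC also carried pericyte markers at 2070 to 2391 CPM, with 5 and 4 of the 8 markers detected. Notch3, Higd1b and Ndufa4l2 were at 0 in both ICC sums. Fibroblast markers summed to 672 and 3354 CPM there and smooth muscle markers to 1809 and 784 CPM, and no endothelial marker UMI was found. The removal of the muscle coat limits what these few cells can show.

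The promoters of Kcnj8 and Abcc9 are shown because these genes encode partner subunits, lie next to each other and had the most similar profiles of the set. Kcnj8 lies on chromosome 6 at 142564837 to 142571614 and Abcc9 at 142587862 to 142702315 (GRCm38, minus strand), with 16247 bases between them. Both are protein-coding. The windows below, taken from RefSeq (GRCm38.p6), run from 250 bases before to 50 bases after the start of transcription on the minus strand, chr6:142571565-142571864 for Kcnj8 and chr6:142702225-142702524 for Abcc9. Capitals mark matches to TGGGAA or CATTCC on either strand.
Kcnj8: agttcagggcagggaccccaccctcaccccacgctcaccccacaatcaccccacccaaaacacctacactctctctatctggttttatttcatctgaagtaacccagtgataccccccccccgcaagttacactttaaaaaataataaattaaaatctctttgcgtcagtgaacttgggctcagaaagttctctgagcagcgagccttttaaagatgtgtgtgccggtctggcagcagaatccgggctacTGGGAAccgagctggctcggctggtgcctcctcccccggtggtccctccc
Abcc9: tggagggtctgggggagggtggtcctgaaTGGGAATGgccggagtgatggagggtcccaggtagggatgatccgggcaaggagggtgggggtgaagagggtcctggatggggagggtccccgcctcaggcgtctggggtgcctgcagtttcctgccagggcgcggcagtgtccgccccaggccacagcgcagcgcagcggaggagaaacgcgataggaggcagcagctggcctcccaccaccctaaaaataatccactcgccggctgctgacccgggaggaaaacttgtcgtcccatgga
Of 5 motifs searched on both strands, the letters TGGGAA (read by RBPJ) occurred in both windows, at the start site of Kcnj8 and 221 bases before that of Abcc9. In Abcc9 they overlapped CATTCC (TEAD) read from the other strand. Such matches are common: 25.6% of the 32851 mouse promoter windows held TGGGAA and 14.7% held CATTCC. Neither window held TGANTCA (AP-1, in 7.81% of windows), TATAAA (13.6%) or a CArG box (1.63%). Windows were on hand for 8 of the 10 genes, all but Gjc1 and Piezo2.

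Kcnj8 encodes Kir6.1, the pore of the KATP channel. Its level in PDGFRαhi FB was 640.0 and 375 CPM in the SI libraries and 98.0 and 54.1 CPM in the colonic libraries. In pericytes it was 564, 447, 1067 and 613 CPM. The SI PDGFRαhi FB were at 1.13 and 0.841 times the pericytes of the same library, while colonic pericytes were 10.9 and 11.3 times above colonic PDGFRαhi FB. Other FB held 2.29 and 1.80 CPM in the SI and 23.3 and 8.72 CPM in the colon, and SMC 14.9, 36.2, 84.9 and 54.0 CPM. The 2 colonic ICC sums differed widely, with 545 and 66.4 CPM.

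Thinned to 2000 UMIs per cell, a Kcnj8 UMI was found in 67.7% and 47.5% of SI PDGFRαhi FB and in 17.6% and 9.97% of colonic PDGFRαhi FB. In other FB of the same libraries the shares were 0.306%, 0.323%, 4.02% and 1.64%. Before thinning they were 93.3%, 50.04%, 51.3% and 17.3% in PDGFRαhi FB (exact 95% Clopper-Pearson intervals 88.3% to 96.6%, 47.1% to 53.0%, 47.1% to 55.4% and 15.9% to 18.8%). The order by intestine in the unthinned shares follows depth as well as level, and only the thinned shares set both SI libraries above both colonic ones. Shares and intervals cover counting error only.

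Abcc9 encodes SUR2, the regulatory subunit that pairs with Kir6.1. PDGFRαhi FB held 317 and 307 CPM in the SI but 30.4 and 31.2 CPM in the colon. Pericytes held 246, 447, 239 and 456 CPM, with no order by intestine. Other FB stayed at 2.53, 1.77, 6.94 and 9.45 CPM and SMC at 17.8, 36.2, 28.7 and 52.2 CPM. Across the 18 sums of class and library, Abcc9 was the gene most like Kcnj8 among 10597 genes, and Kcnj8 the gene most like Abcc9 (Pearson r = 0.96 of log2(CPM + 1), with points that share libraries and depth). In thinned SI PDGFRαhi FB, Abcc9 was found in 45.9% and 51.3% of the cells with a Kcnj8 UMI and in 42.3% and 43.0% of those without one, so that detection of both in 1 cell was close to the product of their shares. In the colon these values were 11.8% and 11.3% against 6.68% and 5.58%. In pericytes of the 3 libraries with more than 3 such cells, Abcc9 was found in 48.1%, 53.1% and 64.7% of the cells with a Kcnj8 UMI and in 0%, 8.00% and 8.33% of those without one.

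**Figure D1:**
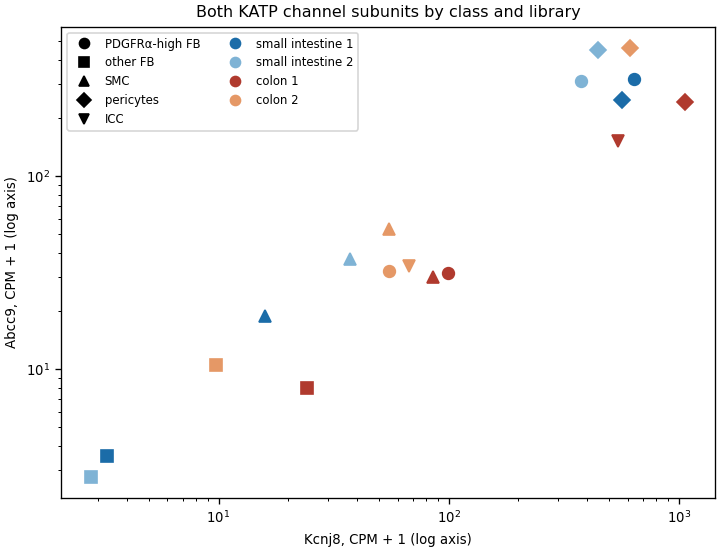
CPM + 1 of Kcnj8 (x axis, log) against CPM + 1 of Abcc9 (y axis, log), 1 point per cell class (marker shape) and library (colour). SI PDGFRαhi FB lie near the pericytes, with Abcc9 at 317 and 307 CPM, and colonic PDGFRαhi FB lie near the SMC, with Abcc9 at 30.4 and 31.2 CPM.

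Kcnk2, on chromosome 1 at 189207930 to 189402273, encodes TREK-1, a potassium leak channel of the tandem-pore family that responds to stretch. Its level in PDGFRαhi FB was 422 and 356 CPM in the SI and 20.3 and 14.4 CPM in the colon. Other FB held 232, 222, 137 and 77.2 CPM. The order of the 2 fibroblast classes therefore turned with the intestine: PDGFRαhi FB were 1.82 and 1.60 times above other FB in the SI, while in the colon they were at 0.148 and 0.187 of their level. SMC and pericytes were near the limit of detection, with at most 11 UMIs in an SMC sum and 2 in a pericyte sum.

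Kcnn3, on chromosome 3 at 89520164 to 89675132, encodes SK3, the small-conductance calcium-activated channel. PDGFRαhi FB held 175 and 176 CPM in the SI and 24.3 and 21.1 CPM in the colon. Other FB held 71.2, 87.3, 18.3 and 22.4 CPM. In the SI, PDGFRαhi FB were 2.46 and 2.02 times above other FB, and in the colon 1.33 and 0.940 times. SMC of the SI had no Kcnn3 UMI and colonic SMC had 2.70 and 4.87 CPM. No ICC held a Kcnn3 UMI.

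P2ry1, on chromosome 3 at 61002795 to 61008982, encodes the P2Y1 receptor, upstream of such channels in the path described above. No class sum held more than 92.6 CPM of it. PDGFRαhi FB held 38.2, 22.9, 58.1 and 39.8 CPM, other FB 71.1, 45.2, 48.7 and 21.2 CPM, and SMC 62.4, 92.6, 16.6 and 13.3 CPM. PDGFRαhi FB were at 0.537 and 0.507 of other FB in the SI and at 1.19 and 1.87 times in the colon. Pericytes had no P2ry1 UMI in 3 of the 4 libraries and 4 UMIs in the other.

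P2rx1, on chromosome 11 at 72999103 to 73015200, encodes the P2X1 channel, known from smooth muscle. SMC held 128, 24.2, 19.8 and 6.64 CPM, from 43, 6, 44 and 15 UMIs. Other FB held 13.6 and 17.4 CPM in the SI and 0.326 and 0.759 CPM in the colon. PDGFRαhi FB were at 2.01, 3.38, 1.56 and 3.63 CPM. The 2 SI sums of other FB lay above both colonic sums with no overlap.

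Gja1, on chromosome 10 at 56377330 to 56402513, encodes the most widespread gap junction protein. PDGFRαhi FB held 383, 445, 493 and 368 CPM, the highest of the 4 classes present in every library. Other FB held 52.9, 83.4, 84.1 and 68.7 CPM, a ratio of 5.33 to 7.24. The colonic ICC lay higher still, with 1651 and 1003 CPM, and 12 of 12 and 97.3% of their cells had a Gja1 UMI. In colonic SMC of replicate 1, 62 Gja1 UMIs came from 2.26% of the cells, so that this sum of 27.8 CPM rests on a few cells.

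Gja4, on chromosome 4 at 127311421 to 127314039, encodes a connexin known from vessels. It was highest in pericytes, with 819, 261, 575 and 478 CPM from 206, 7, 298 and 64 UMIs. SMC held 89.2, 0, 27.8 and 4.42 CPM. PDGFRαhi FB had 0, 1, 3 and 0 UMIs in all, and ICC had 0. SMC of SI replicate 1, which had the highest SMC level of Gja4, also had the highest summed level of the 8 pericyte markers among the SMC sums, 1721 CPM against 429 to 894 CPM in the others. Among the genes most like Gja4 were the pericyte marker Notch3 (r = 0.97) and the endothelial marker Emcn (r = 0.97). Cells gated as endothelial held 193, 159 and 102 CPM of Gja4 in the 3 libraries with more than 1 such cell. Pericyte sums held 37.2 to 206 CPM of the whole endothelial list, and its part in the Gja4 level was not tested.

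Gjc1, on chromosome 11 at 102799579 to 102819700, encodes a connexin of low conductance. Pericytes held 290.1, 261, 314 and 269 CPM, above SMC with 101, 101, 65.1 and 103 CPM. PDGFRαhi FB held 38.8, 86.1, 41.3 and 73.0 CPM and other FB 26.4, 47.3, 23.4 and 42.2 CPM. The order of the 4 classes was the same in every library. Within a class, replicate 2 libraries were higher than replicate 1 libraries in both fibroblast classes whatever the intestine.

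Piezo2, on chromosome 18, had opposite patterns in the 2 fibroblast classes. PDGFRαhi FB held 0 and 3.76 CPM in the SI (0 and 10 UMIs) and 21.2 and 38.6 CPM in the colon (136 and 425 UMIs). Other FB held 52.3 and 61.9 CPM in the SI and 3.15 and 8.24 CPM in the colon. Pericytes held 35.8, 112, 90.7 and 82.2 CPM, the second of these from 3 UMIs. Of the ICC sums, 1 held no UMI and the other 239 CPM.

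Of the 10 genes, 1 (Gja1) was highest in PDGFRαhi FB among the 4 classes in all libraries, against 6.22% of the 10378 genes at a mean of at least 5 CPM. For pericytes it was 2 (Gja4 and Gjc1), against 7.12%. PDGFRαhi FB exceeded other FB in all 4 libraries for 4 genes, Kcnj8, Abcc9, Gja1 and Gjc1, against 43.3% of all genes. These counts are from the contrast that chose the genes and nothing is read from them. Without SI replicate 1 the number of genes with 1 leading class in every library was 6, instead of 3, and without colon replicate 2 it was 5.

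**Figure D2:**
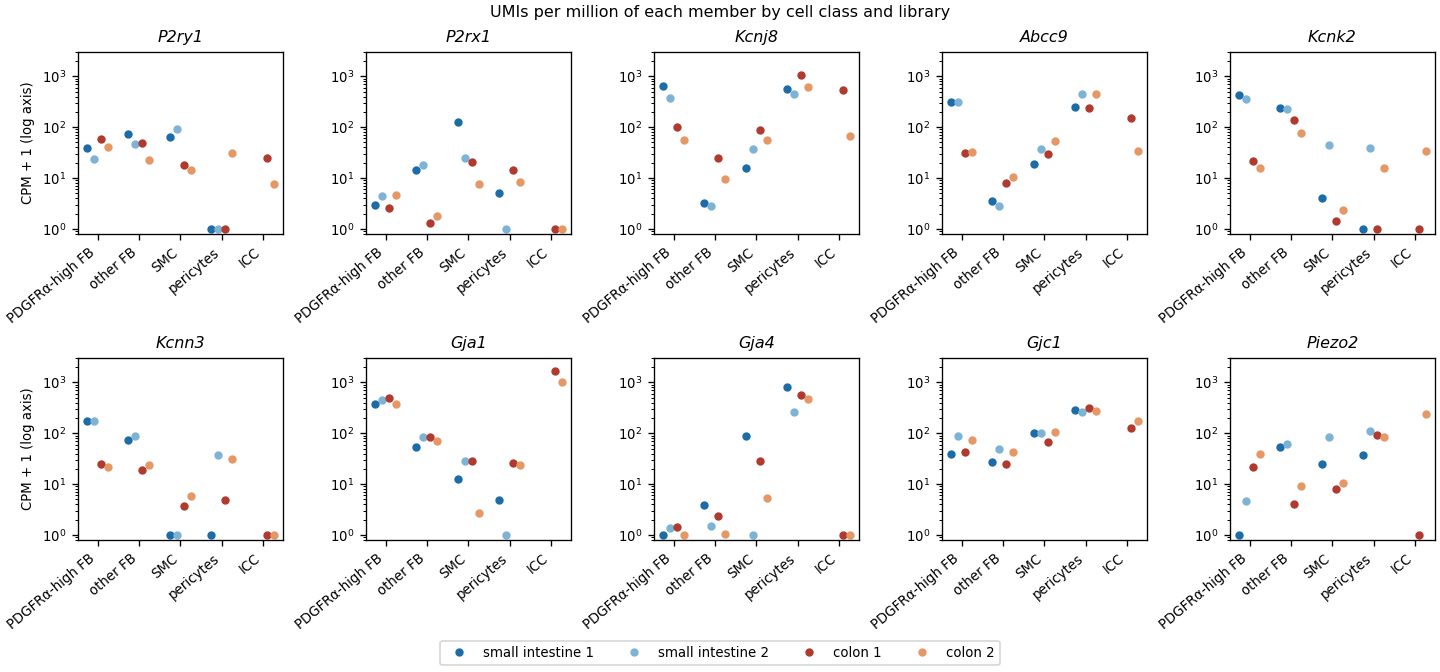
CPM + 1 on a log axis for each of the 10 genes (panels) in 5 cell classes, with 1 point per library. Kcnj8, Abcc9, Kcnk2 and Kcnn3 in PDGFRαhi FB are higher in both SI libraries than in both colonic libraries, whereas Gja1 lies between 368 and 493 CPM in all 4.

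The first tested question was which of these genes differ between the intestines within a class. In PDGFRαhi FB the potassium channel genes Kcnk2, Abcc9 and Kcnn3 were lower in the colon. The log2 fold change of Kcnk2 was -4.35 ± 0.31 (SE, 2 libraries per group; adjusted p = 0.0220, edgeR quasi-likelihood test over all genes). For Abcc9 it was -3.19 ± 0.26 (adjusted p = 0.0224, edgeR). For Kcnn3 it was -2.81 ± 0.25 (adjusted p = 0.0234, edgeR). A call needed an adjusted p under 0.05 and a log2 change beyond 1.5. Of 11489 genes tested in this class, 186 were called (1.62%), 88 of them lower in the colon (0.766%), against 3 of the 9 genes of the set that passed the filter on low counts. Gja4 did not pass it. The median log2 fold change of those 9 was 0.03, against 0.02 over all genes tested.

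Within replicate 1, processed with Cell Ranger 3.0.2, the SI level of Kcnk2 was 20.8 times the colonic one, and within replicate 2, processed with version 3.1.0, it was 24.7 times. The corresponding ratios were 10.4 and 9.84 for Abcc9 and 7.21 and 8.37 for Kcnn3. The 3 calls were lost when either SI library was left out, with log2 changes of -4.25 and -4.47 for Kcnk2, -3.20 and -3.21 for Abcc9 and -2.84 and -2.80 for Kcnn3. In those fits, which have 1 SI library, edgeR called 0 genes in all, with 1085 and 999 genes at an unadjusted p under 0.05.

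Kcnj8 was also lower in both colonic libraries of PDGFRαhi FB, but its log2 change of -2.61 ± 0.43 missed the threshold (adjusted p = 0.0692, edgeR), with ratios of 6.53 and 6.94 within the replicates. It was called by DESeq2, with the replicate number as a block, with no filter on low counts and without either colonic library. Piezo2 had a log2 change of 3.89 ± 0.92 (adjusted p = 0.141, edgeR). It was called by DESeq2, with the block and without colon replicate 1. Its level in colonic replicate 1 was at least 10.6 times that of the SI library at 0 UMIs (set at a floor of 3 UMIs), and in replicate 2 the ratio was 10.3. P2ry1, P2rx1, Gja1 and Gjc1 had log2 changes of 0.83 ± 0.36, 0.09 ± 0.71, 0.19 ± 0.28 and 0.03 ± 0.52 and were not called. Over all genes of this class, DESeq2 called 550, the fit with the block 939 and the fit with no filter 632.

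In other FB no gene of 13256 was called (0%) by edgeR with intestine as the only term, although 1282 had an unadjusted p under 0.05 and DESeq2 called 397. Of the 10 genes, 6 had an unadjusted p under 0.05 and DESeq2 called 5: P2rx1, Kcnj8, Abcc9, Kcnn3 and Piezo2. P2rx1 had a log2 change of -4.74 ± 0.47 (adjusted p = 0.0677, edgeR), Piezo2 of -3.33 ± 0.55 (adjusted p = 0.148, edgeR) and Kcnn3 of -2.02 ± 0.26 (adjusted p = 0.0929, edgeR). Kcnj8 and Abcc9 pointed the other way, with 2.88 ± 0.55 and 1.90 ± 0.39 (adjusted p = 0.183 and 0.206, edgeR). The median over the 10 genes was -1.01, against -0.01 over all genes tested. Within replicates 1 and 2 the SI level was 16.6 and 7.51 times the colonic one for Piezo2 and 3.88 and 3.89 times for Kcnn3, and the colonic level of Kcnj8 was 10.2 and 4.86 times that of the SI. Without colon replicate 1, edgeR called P2rx1 and Piezo2. With the replicate number as a block, edgeR called the same 5 genes of the set as DESeq2, among 580 genes in all.

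In SMC, 20 of 9515 genes were called (0.21%) and none of the 8 genes of the set that could be tested. Of these, 4 had an unadjusted p under 0.05, as did 682 of all 9515 genes. P2ry1 had a log2 change of -2.33 ± 0.41 (adjusted p = 0.118, edgeR) and was called by DESeq2, the only one of the set among 98 called genes. With the replicate number as a block, edgeR called P2ry1, P2rx1, Kcnj8 and Piezo2, among 383 genes in all. The SI level of P2ry1 was 3.76 and 6.98 times the colonic one within the replicates. Piezo2 had -2.58 ± 0.63 and P2rx1 -2.55 ± 0.83. Without SI replicate 1 the calls included P2ry1 and Piezo2, without colon replicate 1 P2ry1 and P2rx1, and without colon replicate 2 Piezo2. Fibroblast markers summed to 4859 to 12181 CPM in the SMC sums, and their part in these values was not tested.

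In pericytes no gene of 3413 was called (0%) by edgeR, with 160 at an unadjusted p under 0.05 and 2 called by DESeq2. None of the 5 genes of the set that could be tested had an unadjusted p under 0.05 or was called by DESeq2. Kcnj8 had a log2 change of 0.73 ± 0.46, Abcc9 of 0.12 ± 0.53, Gja4 of -0.13 ± 0.54, Gjc1 of 0.09 ± 0.44 and Piezo2 of 0.82 ± 0.64. Differences of the size of these SE were not detectable, and no lack of a difference is read from these values. The second SI library held 19 pericytes.

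**Figure D3:**
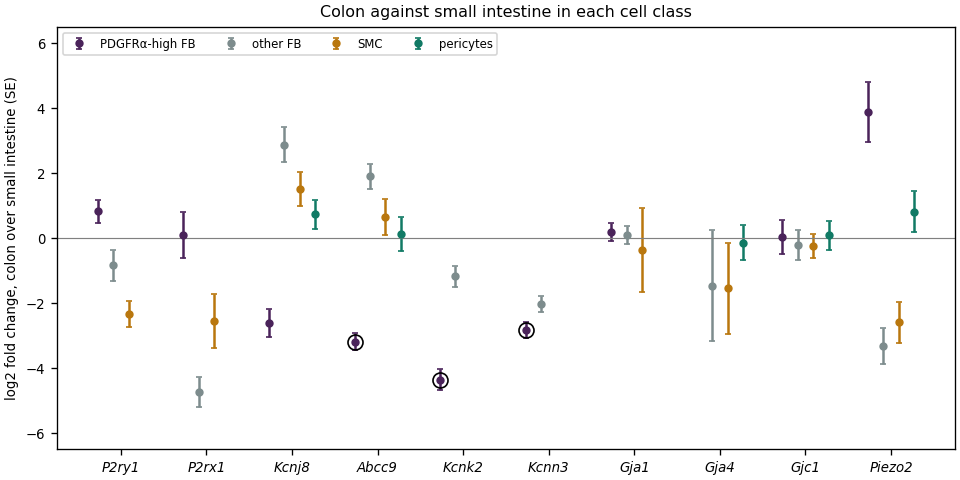
Log2 fold change of the colon over the SI (y axis, bars are SE) for each gene in 4 cell classes, from 2 libraries per group. Circled points are the 3 calls, Abcc9, Kcnk2 and Kcnn3 in PDGFRαhi FB, and points are missing where a gene did not pass the filter on low counts.

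The second tested question was whether the difference between the intestines is the same in PDGFRαhi FB and other FB. It was tested as a term for class by intestine, with the library as a block. The difference was called for 6 of the 10 genes, against 621 of 13008 genes (4.77%). The genes were chosen by class in these same data with earlier results known, so nothing is read from this share. Kcnj8 had a term of -5.28 ± 0.23 (adjusted p = 3.28e-09, edgeR) and Abcc9 of -5.23 ± 0.23 (adjusted p = 1.47e-09, edgeR), since both fell towards the colon in PDGFRαhi FB and lay higher there in other FB. Kcnk2 had -3.14 ± 0.16 (adjusted p = 7.08e-09, edgeR). These 3 are among 254 genes with a lower term (1.95%).

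The term was positive for Piezo2 (7.18 ± 0.40, adjusted p = 3.28e-07, edgeR), P2rx1 (4.92 ± 0.49, adjusted p = 5.25e-06, edgeR) and P2ry1 (1.74 ± 0.23, adjusted p = 0.000202, edgeR), among 367 such genes (2.82%). Piezo2 and P2ry1 had opposite signs in the 2 classes. For P2rx1 the term came with a log2 change of -4.74 in other FB and 0.09 in PDGFRαhi FB. Kcnn3 had -0.82 ± 0.18 (adjusted p = 0.00625, edgeR), short of the size asked of a call. For Gja1 and Gjc1 the terms were 0.07 ± 0.16 and 0.24 ± 0.17. The 6 calls held under each alternative fit and each library left out, except that P2ry1 had a term of 1.39 without colon replicate 2.

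Both fibroblast classes hold further subsets, and the 10 genes were looked up in cells with and without a UMI of genes the study used to tell these apart (chosen after the data were seen; described without a test, and a cell without a UMI may still express the gene). Thbd encodes thrombomodulin (CD141), which the study used to divide colonic PDGFRαhi FB. In colonic PDGFRαhi FB without a Thbd UMI, P2ry1 reached 192 and 71.7 CPM, against 29.7 and 13.96 CPM in those with one. SI PDGFRαhi FB with a Thbd UMI held 38.1 and 24.1 CPM of P2ry1. Within the replicates, P2ry1 was thus lower in the colon among cells with Thbd, unlike in the class as a whole. Piezo2 was at 70.2 and 67.0 CPM without Thbd and 10.8 and 15.6 CPM with it. Both genes were thus 4.30 to 6.52 times higher in the cells without Thbd, which were 90 of 585 and 1116 of 2662 cells.

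Kcnj8, Abcc9, Kcnk2 and Kcnn3 went the other way in the colon. Abcc9 was 4.39 and 2.80 times and Kcnk2 2.55 and 4.14 times higher in the cells with a Thbd UMI. In these cells the colonic level of Abcc9 was 35.2 and 43.9 CPM, against 315 and 320 CPM in SI PDGFRαhi FB with a Thbd UMI. Kcnk2 was at 22.7 and 21.8 CPM, against 421 and 359 CPM. For Abcc9 and Kcnk2 the gap between the intestines was therefore also present among the cells with Thbd. Gja1 differed little, at 1.13 and 1.07 times. Detection of P2ry1 and Piezo2 in the same thinned colonic PDGFRαhi FB was rare, with 4 cells of 581 and 17 of 2488, where the product of their shares gives 1.69 and 9.84.

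In other FB, P2rx1 lay mainly in cells without a UMI of Cd34, a surface marker by which the study divided fibroblasts. SI other FB without a Cd34 UMI held 128 and 50.3 CPM, against 2.38 and 4.41 CPM in those with one. By Fgfr2, which names a CD34-low fibroblast subset of the study, the levels were 27.7 and 43.7 CPM with a UMI and 1.14 and 7.47 CPM without. Among SI other FB with an Ackr4 UMI, P2rx1 had 0 and 2 UMIs.

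Ackr4 encodes an atypical chemokine receptor which the study followed by a reporter allele. Piezo2 was 6.43, 4.71, 4.67 and 4.58 times higher in other FB with an Ackr4 UMI than in the rest, in the SI at 119 and 193 CPM against 18.5 and 40.9 CPM. In the colon it was at 10.7 and 27.1 CPM with Ackr4. Gja1 was lower in the cells with Ackr4 in all 4 libraries, at 0.151 to 0.313 of the rest. Kcnn3 was 2.04 and 1.76 times higher with Ackr4 in the SI, and 1.33 and 1.29 times in the colon.

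**Figure D4:**
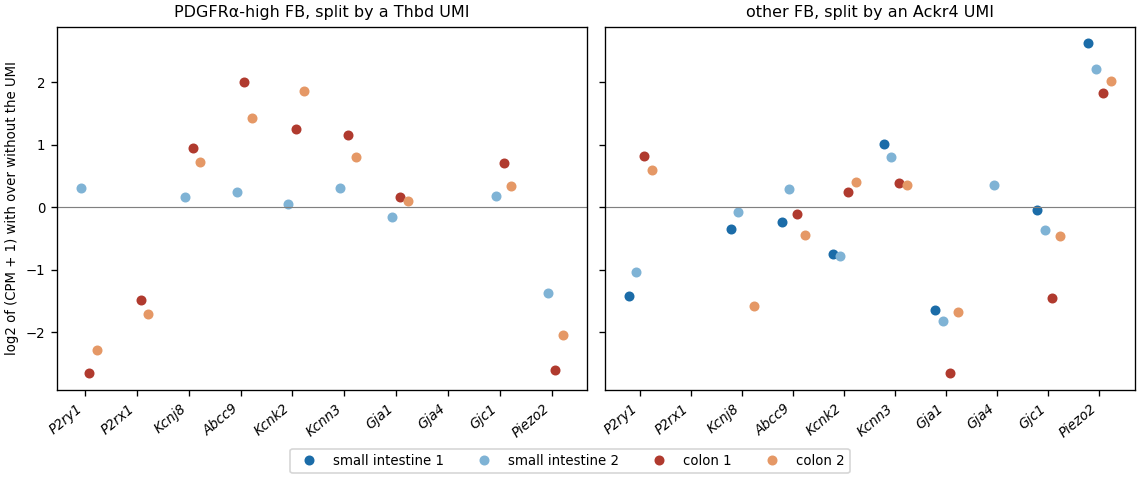
Log2 ratio of CPM + 1 (y axis) in cells with over cells without a Thbd UMI (PDGFRαhi FB, left) or an Ackr4 UMI (other FB, right), 1 point per gene and library, left out where a side has 3 UMIs or fewer or under 50 cells. P2ry1 and Piezo2 lie below 0 in colonic PDGFRαhi FB, and Piezo2 lies above 0 in other FB of all 4 libraries.

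Related genes of the same pathways were taken from 9 lists with 106 genes, of which 104 were in the tables. Between 17 and 44 of them could be tested in a class, and edgeR called 0 for the colon against the SI in any class. At an unadjusted p under 0.05 there were 17 of 37 in PDGFRαhi FB (1507 of 11489 over all genes), 9 of 44 in other FB (1282 of 13256), 6 of 32 in SMC (682 of 9515) and 2 of 17 in pericytes (160 of 3413). DESeq2 called 10, 2, 2 and 0 of the related genes, against 550, 397, 98 and 2 over all genes. The 10 in PDGFRαhi FB were Trpa1, Entpd1, Enpp2 and Pde5a, higher in the colon, and Entpd2, Enpp1, Kcnk1, Itpr2, Cacna1d and Cacna1g, lower there. Trpa1, a channel gated by irritants, was at 1.34, 0, 29.3 and 26.9 CPM in PDGFRαhi FB. The nucleotidases Entpd1 and Entpd2, which break down extracellular nucleotides, were at 1.34, 3.38, 18.7 and 10.7 CPM and at 62.9, 94.7, 21.2 and 19.3 CPM.

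The term for class by intestine was called for 12 of 50 related genes tested, against 4.77% of all genes. These lists were also chosen with earlier results of these data known. P2ry14, the receptor for nucleotide sugars, had a term of 2.06 ± 0.15 (adjusted p = 1.88e-07, edgeR), with other FB at 283, 250.8, 85.6 and 65.9 CPM. Pde5a, which breaks down cyclic GMP, had 1.97 ± 0.17 (adjusted p = 1.29e-06, edgeR) and Entpd2 -2.07 ± 0.20 (adjusted p = 5.71e-06, edgeR). The other 9 were Entpd1, Enpp2, Kcnk3, P2rx6 and P2rx7 with a higher term and Enpp1, Kcnj5, Adora1 and Gjd3 with a lower one.

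By level, 36 of the 104 related genes reached a mean of 20 CPM in at least 1 of the 4 classes. None of the 13 other inward rectifiers and their ABC partners did, among them Kcnj11 and Abcc8, the alternative KATP subunits. Of 8 other calcium-activated potassium channel genes, Kcnma1 and Kcnmb1, the pore and an accessory subunit of the large-conductance channel, did, and SMC led for both in every library with means of 102 ± 25.8 and 133 ± 74.4 CPM (SD, n = 4 libraries). All 6 genes of the path from nitric oxide to cyclic GMP did, and the subunits of its receptor, Gucy1a3 and Gucy1b3, were highest in pericytes in every library with means of 827 ± 178 and 832 ± 250.6 CPM. The calcium channel gene Cacna1g was highest in PDGFRαhi FB in every library, with a mean of 49.9 ± 32.9 CPM.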

How the data were processed

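Single-cell RNA sequencing counts were deposited as filtered gene-by-barcode matrices of UMI counts for 2 SI and 2 colonic libraries. Per the file headers the authors made them with Cell Ranger 3.0.2 (replicate 1) and 3.1.0 (replicate 2), and the submitters' processing notes also name Seurat 3 and mm10. Per the labels a 3′ or a 5′ kit was used, without saying which for which library, so kit and replicate number cannot be told apart. The 10 genes and the lists of related genes were chosen with earlier results of these data known.

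Cells needed at least 500 genes, 1000 UMIs and at most 10% mitochondrial UMIs. The automatic doublet threshold of scrublet (in scanpy 1.11.5) marked 1 of 15263 cells in SI replicate 2, so in each library the highest scores were removed instead, at 0.4% per 1000 barcodes (15, 1025, 25 and 687 cells). This rule was set after that failure was seen. Classes were gated on summed marker CPM, with at least 3 markers detected and cuts of 2000 (PDGFRαhi FB), 1500 (ICC), 4000 (SMC) and 4000 CPM (pericytes). Other FB lay under 1000 CPM of the PDGFRαhi markers. Cell names were rebuilt here and may differ from those of the study.

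Counts were summed per class and library and tested with edgeR 4.0.16 (filterByExpr, TMM, robust quasi-likelihood, Benjamini-Hochberg adjustment), a class by intestine term having the library as a block. The script was tested on simulated data first. Positions are from GENCODE on GRCm38 and promoters from RefSeq. For likeness the 3 genes with the highest Pearson r of log2(CPM + 1) over sums were ranked, and a related gene was named where called, or by level in its list. Alternatives were DESeq2 1.42.0 as tool or for size factors, no filter on low counts, the replicate number as a block, other gates and cell filters, doublets kept, and each library left out. Thinned shares leave out cells under 2000 UMIs.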

Additional observations from a re-analysis of the deposited data

Results flagged for a closer look

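The effect of the colon differed between PDGFRαhi FB and other FB for 6 genes in the test of the difference itself (edgeR, class by intestine term on the log2 scale). The term was -5.28 for Kcnj8, -5.23 for Abcc9 and -3.14 for Kcnk2, and 7.18 for Piezo2, 4.92 for P2rx1 and 1.74 for P2ry1.

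The 599 cells gated as endothelial entered no comparison although the sort was set against CD31, and 576 of them came from the replicate 1 libraries. They held UMIs of 7 of the 10 genes above the 3 counts that a count of 0 allows. The totals were 829 UMIs for Gja1, 520 for Gja4, 198 for Kcnj8, 161 for Kcnn3, 113 for Piezo2, 79 for Gjc1 and 30 for Abcc9. P2ry1 and P2rx1 had 0 UMIs in these cells. Gja1 stood at 345, 191 and 311 CPM in the libraries with more than 1 such cell.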

How the results depend on the processing

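In PDGFRαhi FB the 186 calls became 550 with DESeq2, 632 with no filter on low counts and 939 with the replicate block, and lay between 0 and 587 with 1 library left out. The calls of Abcc9, Kcnk2 and Kcnn3 there were lost without SI replicate 1 (adjusted p = 0.104, 0.0906 and 0.109, edgeR) and without SI replicate 2 (adjusted p = 0.153, 0.128 and 0.183, edgeR). In other FB the 0 calls became 1 with DESeq2 size factors, 397 with DESeq2, 224 with no filter, 580 with the replicate block, 11 with higher and 12 with lower cuts, 11 at 1000 genes per cell and 15 with doublets kept, and 0 to 133 with 1 library left out. In SMC the 20 calls became 98 with DESeq2, 79 with no filter and 383 with the replicate block, and 37 to 115 with 1 library left out. In pericytes the 0 calls became 2 with DESeq2, 6 with no filter, 97 with the replicate block, 1 with higher cuts and 19 at 1000 genes per cell, and 4 to 34 with 1 library left out. Counts of class by intestine terms stayed between 482 and 735. The number of genes of the set with 1 leading class was 3, 4 with lower cuts, and 3 to 6 with 1 library left out. The cause of these shifts was not tested.

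Deviations of same-numbered libraries correlated at 0.43 to 0.77, but the labels do not say what a number shares and there are only 2 pairs, so the replicate block is an alternative. With it, 5 genes of the set were called in PDGFRαhi FB (Kcnj8, Abcc9, Kcnk2, Kcnn3 and Piezo2), 5 in other FB (P2rx1, Kcnj8, Abcc9, Kcnn3 and Piezo2), 4 in SMC (P2ry1, P2rx1, Kcnj8 and Piezo2) and 0 in pericytes. Over all genes the block gave 939, 580, 383 and 97 calls in these classes. No direction of a called value was reversed. With 1 library left in a group, it is assumed to vary like the other group. The ICC could not be compared between the intestines, since no SI cell was gated. The pericyte values rest on few cells, with 19 in SI replicate 2.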
